A study of Mus musculus with 4 samples.

Results

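CTCF peaks over the clustered protocadherin genes were described in the medial ganglionic eminence (MGE), the ventral forebrain region that produces many cortical interneurons, and in the telencephalon of mouse embryos at embryonic day 13.5. CTCF binds DNA through its zinc fingers and, with cohesin, holds chromatin loops at their ends. The genes were chosen by symbol: 57 of 21887 protein-coding genes in the RefSeq gene table, all on chromosome 18, were Pcdha, Pcdhb or Pcdhg genes. Peaks were taken from the 3 clusters, the spaces between them and 200 kb on either side, chr18:36730285-38041873 in mm10. This region held 25 of 25625 peaks of the MGE list and 33 of 31886 peaks of the telencephalon list. Each tissue gave 1 chromatin immunoprecipitation (ChIP-seq) library made with a rabbit antibody against CTCF and 1 input library, and the inputs are not analysed here. The labels name no strain, genotype or treatment for either tissue, and they do not state how many embryos were pooled or if the MGE was part of the dissected telencephalon. The dissection text attached to the telencephalon samples also speaks of the MGE. Libraries were made with an Ultra II kit for MGE and with another New England Biolabs kit for telencephalon, so tissue and kit cannot be told apart. The header of the telencephalon list has e14 in its track name, so its stage is less certain than the label. Peak lists carry no expression, so the tissues could not be checked against marker genes.

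With 1 CTCF library per tissue no difference between the tissues was tested, and all values describe these libraries. The deposited lists give the start and end of each peak without score, summit or read count, so the depth is unknown and a site missing from a list may lie below that list's calling limit. Intervals are exact 95% Clopper-Pearson intervals and cover counting error alone. They treat neighbouring genes as independent and are therefore too narrow.

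Clustered protocadherins are cell surface cadherins. Each Pcdha and Pcdhg gene has its own promoter and variable exon, which is spliced to constant exons at the far end of its cluster, whereas each Pcdhb gene is a single coding exon. Single neurons use a small and variable set of these promoters, and the resulting surface code lets a neuron tell its own branches from those of others. CTCF and cohesin are known to bring chosen promoters to enhancers that lie downstream of the clusters. Most variable promoters carry a conserved element that binds CTCF, except those of Pcdhac2, Pcdhb1, Pcdhgc4 and Pcdhgc5, and many Pcdha variable exons hold a further CTCF site inside the exon. All 3 clusters are transcribed toward higher coordinates, so the lower end of a gene was taken as the start of its variable exon. Exons themselves were not annotated in the table used.

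CTCF peaks were unevenly spread along the locus, with many in Pcdhg and just beyond it. The Pcdha cluster (chr18:36930285-37188897) held 3 MGE and 3 telencephalon peaks, or 11.6 per Mb in each list. In the Pcdhb cluster (chr18:37264998-37521419) there were 2 peaks for MGE and 1 for telencephalon, or 7.80 and 3.90 per Mb. In the Pcdhg cluster (chr18:37661775-37841873) there were 5 peaks for MGE and 10 for telencephalon, or 27.8 and 55.5 per Mb. The 200 kb above Pcdhg had 10 MGE and 14 telencephalon peaks, 50 and 70.0 per Mb, and the 200 kb below Pcdha had 3 in each list. On the whole of chromosome 18 the density was 9.46 peaks per Mb in the MGE list and 10.4 in the telencephalon list. Over the region it was 19.1 and 25.2 per Mb. The 2 MGE peaks and 1 telencephalon peak of Pcdhb are too few to set its density apart from that of chromosome 18. Among the 3 clusters Pcdhg was the densest and Pcdhb the sparsest in both lists, but in the MGE list this order rests on 10 peaks. It was lost among the wider 50% of the whole MGE list, of which 1 peak lay in Pcdha, 1 in Pcdhb and 0 in Pcdhg.

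**Figure D1:**
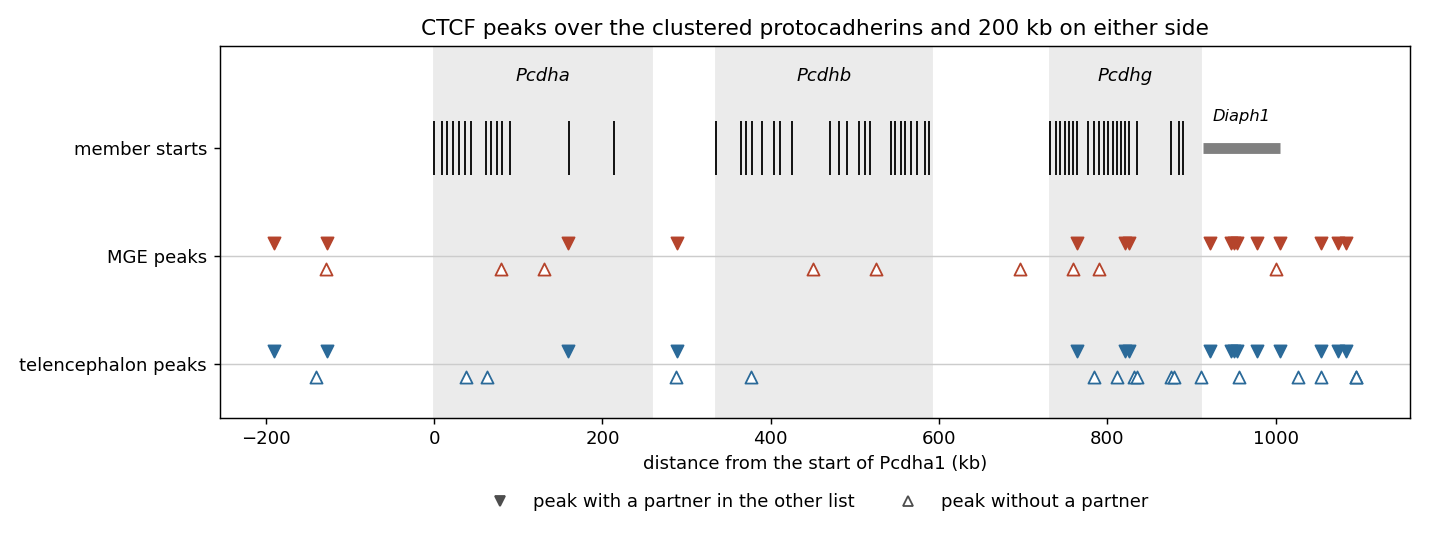
Positions of CTCF peaks along the locus, as distance in kb from the start of Pcdha1. Black ticks are the starts of the 57 protocadherin genes, shaded blocks are the clusters, filled triangles are peaks with a partner in the other list and open triangles are peaks without one; 16 peaks of each list have a partner, and 9 of these lie above Pcdhg.

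**Figure D2:**
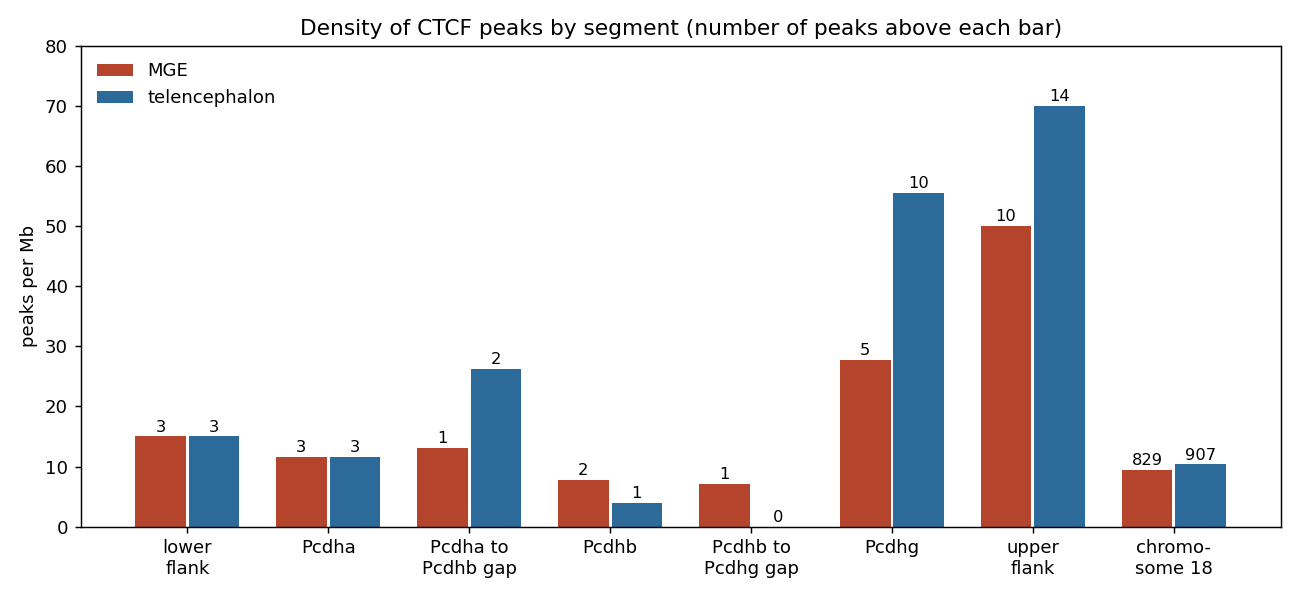
CTCF peaks per Mb in each segment of the locus and on the whole of chromosome 18, with MGE at the left and telencephalon at the right of each pair and the number of peaks above each bar. Pcdhg and the 200 kb above it exceed the chromosome value in both lists. Pcdhb, with 2 MGE peaks and 1 telencephalon peak, lies below it in both, by counts too small to set it apart.

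A peak within 1 kb of the start was found for 7 of 57 genes in MGE (12.3%, with an interval of 5.08 to 23.7%) and for 11 of 57 in telencephalon (19.3%, 10.05 to 31.9%). Over all protein-coding genes the same window at the lower end held a peak for 6.23% in MGE and 10.2% in telencephalon. At the lower end many other genes stop rather than start. With transcript starts of known strand, which were to hand for 17492 genes outside chromosome 18, the shares were 8.36% in MGE and 14.4% in telencephalon, inside the intervals of the protocadherins. In both lists together 4 genes had a start peak (7.02%, interval 1.95 to 17.0%), against 5.32% of all protein-coding genes at the lower end and 7.31% at stranded starts. The 4 were Pcdhac1, Pcdhga5, Pcdhgb7 and Pcdhga11. The MGE list added Pcdha11, Pcdhgb2 and Pcdhgb4. The telencephalon list added Pcdha6, Pcdha8, Pcdhb4, Pcdhga7, Pcdhgb6, Pcdhga12 and Pcdhgc3. Neither list had one for the other 43 genes. These counts depended on narrow peaks: 1 gene in MGE and 3 in telencephalon had a start peak among the wider 50% of each list. With the telencephalon list cut to its widest peaks, as many as in the MGE list, 7 genes had one in each. No share over all protein-coding genes was set beside the counts from wider peaks.

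The 4 start peaks present in both lists lay just before or across the start, with midpoints 1.5 to 20 bp apart between the lists. At Pcdhac1, a C-type gene that is expressed more evenly among neurons than the chosen isoforms, the peak was chr18:37089739-37090108 (370 bp) in MGE and chr18:37089787-37090100 (314 bp) in telencephalon. It ended 28 bp before the start in MGE and 36 bp before it in telencephalon. At Pcdhga5 the peaks were chr18:37694158-37694420 in MGE and chr18:37694200-37694381 in telencephalon, and both covered the start. Their midpoints were 1.5 bp apart, 86 bp before the start in MGE and 84.5 bp before it in telencephalon. At Pcdhgb7 the peaks were chr18:37751394-37751670 in MGE and chr18:37751433-37751650 in telencephalon, with midpoints 87 and 77.5 bp before the start. At Pcdhga11, the next gene along, they were chr18:37755566-37755809 and chr18:37755599-37755801, with midpoints 85.5 and 73 bp before the start. The 3 Pcdhg peaks thus sat at nearly one distance from their starts in both tissues, and every telencephalon peak lay wholly within its MGE partner. Over all 16 shared pairs of the locus the midpoints were 1.5 to 183 bp apart, with a median of 31 bp.

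**Figure D3:**
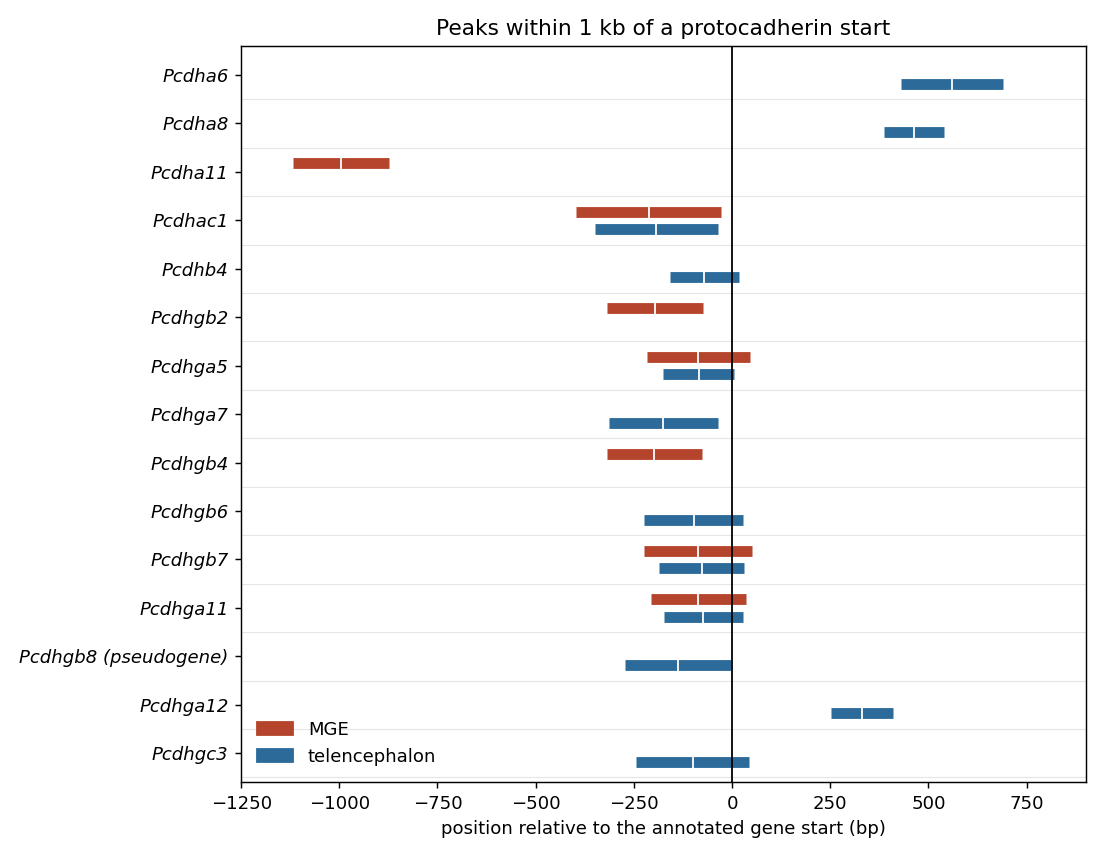
Extent of each CTCF peak within 1 kb of a protocadherin start, in bp relative to the annotated start (vertical line), with MGE above telencephalon in each row and white ticks at the midpoints. The rows follow the order of the genes on the chromosome and include the pseudogene Pcdhgb8; Pcdhac1, Pcdhga5, Pcdhgb7 and Pcdhga11 have a peak in both lists, and those of Pcdha6, Pcdha8 and Pcdhga12 lie after the start.

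Most of the few peaks in the Pcdhg cluster lay near gene starts. Its A and B genes, named by the type of variable exon, are interleaved along the cluster, and 3 C-type genes close it. All 5 MGE peaks of Pcdhg and 7 of its 10 telencephalon peaks lay within 1 kb of a start. The starts are spaced at a median of 5369 bp, so windows of 1 kb on either side take in a good part of the cluster. No share of peaks near starts over the whole lists was set beside these counts. Among the wider 50% of the MGE list 0 peaks lay in Pcdhg. Every one of the 5 MGE midpoints fell before the start, by 85.5 to 197.5 bp. Pcdhgb2 (chr18:37689541-37689784) and Pcdhgb4 (chr18:37720057-37720300) carried the MGE peaks without a telencephalon partner. Both were 244 bp wide and ended 75 and 76 bp before the start. That is the narrowest width in the MGE list, held by 28.9% of its peaks outside the region. The nearest telencephalon peaks were 4341 bp from the Pcdhgb2 start, at Pcdhga5, and 5579 bp from the Pcdhgb4 start, at Pcdhga7. Among the 12 A genes, 2 had a start peak in MGE (interval 2.09 to 48.4%) and 4 in telencephalon (9.92 to 65.1%). Among the 6 B genes, 3 had one in MGE (11.8 to 88.2%) and 2 in telencephalon (4.33 to 77.7%). Intervals this wide allow no order of the types. Of all 21 Pcdhg genes, 5 had a start peak in MGE (8.22 to 47.2%) and 7 in telencephalon (14.6 to 57.0%). All genes gave 6.23% in MGE and 10.2% in telencephalon at the lower end, below these intervals. At stranded starts they gave 8.36%, inside the MGE interval, and 14.4%, just below the telencephalon one. The MGE interval of the B genes lay above both MGE shares. The intervals are too narrow, as stated above, and no difference was tested.

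The telencephalon list had start peaks without an MGE partner at Pcdhga7 (chr18:37714521-37714797, 277 bp), Pcdhgb6 (chr18:37741870-37742122, 253 bp) and Pcdhgc3 (chr18:37806165-37806454, 290 bp). Their midpoints lay 175, 98 and 100.5 bp before the start, as in the shared peaks. None of the 3 had the narrow widths of the bottom of the telencephalon list, since 50.2%, 41.5% and 54.7% of its peaks were narrower. The nearest MGE peak was 5223 bp from the Pcdhga7 start, 9300 bp from that of Pcdhgb6 and 45723 bp from that of Pcdhgc3. Pcdhga12 differed in that its peak (chr18:37765833-37765990, 158 bp) began 253 bp after the start. Away from starts, the telencephalon list had a 173 bp peak that began 2437 bp after the start of Pcdhgc3 (chr18:37808847-37809019) and a 244 bp peak at the shared upper end of the Pcdhg genes (chr18:37841362-37841605). No Pcdhg gene before Pcdhgb2 in the row, from Pcdhga1 to Pcdhga4, had a start peak in either list.

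In the Pcdha cluster the lists shared the peak at Pcdhac1 and no other. Its 12 numbered genes, the ones chosen cell by cell, gave 1 start peak in MGE (interval 0.211 to 38.5%) and 2 in telencephalon (2.09 to 48.4%). The shares over all protein-coding genes at the lower end, 6.23% in MGE and 10.2% in telencephalon, lay inside these intervals. The counts thus do not set the numbered genes apart from other genes. The MGE peak was at chr18:37009741-37009984, 244 bp wide, and ended 874 bp before the start of Pcdha11. That put it near the edge of the 1 kb window, and it was lost with a window of 500 bp. The telencephalon peaks were at Pcdha6 (chr18:36968055-36968315, 261 bp) and Pcdha8 (chr18:36992853-36993007, 155 bp). These began 430 and 386 bp after the start, on the side where the variable exon lies, and not before it as at most Pcdhg genes with a peak. The nearest MGE peaks were 42116 bp from the start of Pcdha6 and 17274 bp from that of Pcdha8. A further MGE peak of 244 bp (chr18:37060283-37060526) lay between Pcdha12 and Pcdhac1, 29610 bp before the start of Pcdhac1. Pcdha1 to Pcdha5 had no start peak in either list, and the Pcdha1 start was 79456 bp from the closest MGE peak and 37770 bp from the closest telencephalon peak.

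At the Pcdhb genes the lists held a single start peak. The genes are short, 2340 to 5271 bp long with a median of 3418 bp, and their starts are spaced at a median of 7842 bp. No start peak was listed for the 22 genes in MGE (0%, upper limit 15.4%) and 1 was listed in telencephalon (4.55%, interval 0.115 to 22.8%). The shares over all protein-coding genes at the lower end, 6.23% in MGE and 10.2% in telencephalon, lay inside these limits, so the counts do not set the Pcdhb genes apart from other genes. The telencephalon peak covered the start of Pcdhb4 (chr18:37307296-37307473) and was 178 bp wide, with its midpoint 70.5 bp before the start. Its distance from the start was close to those of the Pcdhg peaks. The 2 MGE peaks of the cluster lay between genes, at chr18:37380287-37380530, 20325 bp below Pcdhb9, and at chr18:37455496-37455814, 7839 bp above the start of Pcdhb14. Near-identical copies can share reads, and how such reads were treated is not given in the sources used here, so the absence of peaks in a gene family of this kind is uncertain.

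**Figure D4:**
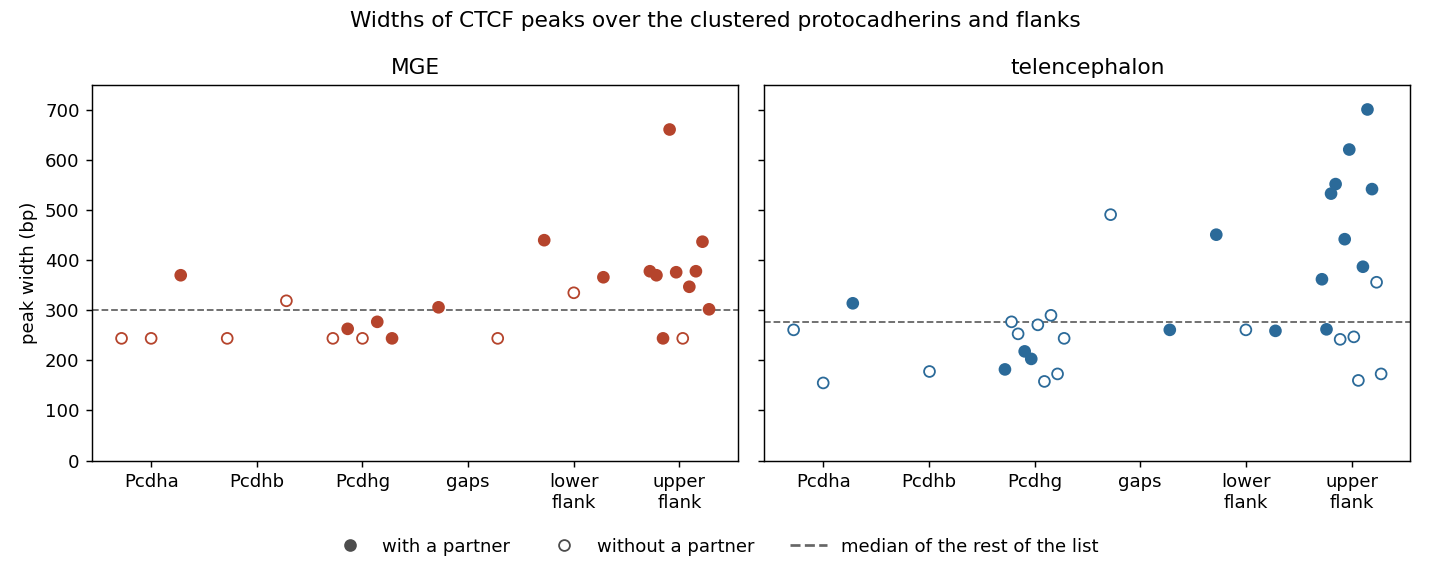
Width in bp of each peak of the locus by segment, with MGE in the left panel and telencephalon in the right, filled where the peak has a partner in the other list. The dashed line is the median of all other peaks of the list, 300 bp in MGE and 276 bp in telencephalon; all 5 MGE peaks in Pcdhg lie below their line, and the widest peaks of each list lie above Pcdhg.

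Among the 5 C-type genes, Pcdhac1 had a start peak in MGE (interval 0.505 to 71.6%). In telencephalon Pcdhac1 and Pcdhgc3 had one (5.27 to 85.3%). The shares over all protein-coding genes at the lower end, 6.23% in MGE and 10.2% in telencephalon, lay inside these intervals. The 4 genes known to lack the conserved promoter element, Pcdhac2, Pcdhb1, Pcdhgc4 and Pcdhgc5, had no start peak in either list (0 of 4, upper limit 60.2%). The Pcdhac2 start was 53570 bp from the nearest MGE peak and 53578 bp from the nearest telencephalon peak, both at Pcdhac1. For Pcdhgc5 these distances were 32587 bp in MGE and 10527 bp in telencephalon. Absence of a peak was also the rule among genes that have the element, so these 4 values do not set the group apart.

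Start peaks lay mostly before the gene. In MGE all 7 midpoints were before the start, with a median distance of 196.5 bp, and 3 of the 7 peaks covered the start. In telencephalon 8 of 11 midpoints were before it, the median offset was 77.5 bp before the start, and 6 of the 11 peaks covered it. Protein-coding genes with a stranded start gave medians of 94.5 bp before the start in MGE and 105.5 bp before it in telencephalon, with 67.1% and 66.2% of midpoints before the start. The peaks covered the start in 40.3% and 35.6% of those cases. Placement just before the start was therefore also the common one for genes at large.

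Between Pcdha and Pcdhb a shared peak stood alone in the MGE list and as one of a pair in the telencephalon list. It was chr18:37218363-37218668 (306 bp) in MGE and chr18:37218316-37218576 (261 bp) in telencephalon, 29466 and 29419 bp above the end of the Pcdha cluster. The telencephalon list had a wider neighbour 573 bp below it (chr18:37217252-37217742, 491 bp), without an MGE partner and wider than 88.2% of the peaks of that list. An enhancer known as HS5-1, which acts on Pcdha promoters, lies downstream of the Pcdha constant exons. Its coordinates were not used here, so these peaks were not assigned to it. Between Pcdhb and Pcdhg, where Slc25a2, a mitochondrial carrier gene, and Taf7, a gene for a subunit of the general transcription factor TFIID, lie, the MGE list had 1 peak of 244 bp (chr18:37626641-37626884) and the telencephalon list had none. Neither Slc25a2 nor Taf7 had a peak within 1 kb of its ends in either list.

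The densest and most shared run of peaks lay above Pcdhg, mainly inside Diaph1 (chr18:37843601-37935622), which encodes a formin that builds actin filaments. Diaph1 held 7 MGE and 7 telencephalon peaks, 76.1 per Mb in each list, of which 6 were shared. In the first 50 kb after Pcdhg all 4 MGE peaks and 4 of 5 telencephalon peaks had a partner. The first pair, chr18:37852133-37852510 in MGE and chr18:37852161-37852522 in telencephalon, lay 10260 and 10288 bp above the end of the cluster. A group of 3 pairs followed within 6.76 kb in MGE. These were chr18:37877399-37877768, chr18:37880275-37880518 and chr18:37883500-37884160 in MGE and chr18:37877423-37877684, chr18:37880265-37880797 and chr18:37883455-37884006 in telencephalon. The last, 661 bp in MGE and 552 bp in telencephalon, was wider than 99.1% of the MGE list and 93.3% of the telencephalon list. The middle one was at the narrowest width in MGE, 244 bp, and 533 bp wide in telencephalon. The telencephalon list had a further 242 bp peak at chr18:37887060-37887301. Enhancers that act on Pcdhb promoters among others are known downstream of the Pcdhg constant exons, and peaks were not assigned to them here.

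Farther up, a shared peak lay inside Diaph1 at chr18:37908126-37908501 in MGE and chr18:37907971-37908412 in telencephalon. Another crossed the upper end of Diaph1 at chr18:37935504-37935850 in MGE and chr18:37935550-37936170 in telencephalon, where the telencephalon peak was 621 bp wide and also within 1 kb of Hdac3, a histone deacetylase gene. The MGE list alone had a 244 bp peak at chr18:37930118-37930361. A telencephalon peak of 247 bp (chr18:37956287-37956533), inside Rell2 and within 1 kb of an end of Fchsd1, had no MGE partner. Inside Arap3, a gene for a GTPase-activating protein, a pair at chr18:37984257-37984634 in MGE and chr18:37984251-37984637 in telencephalon differed by 1.5 bp at the midpoint. A 160 bp telencephalon peak beside it (chr18:37983856-37984015) had no MGE partner. The last shared pairs, at chr18:38004330-38004766 and chr18:38013715-38014016 in MGE, were 437 and 302 bp wide. Their telencephalon partners, chr18:38004230-38004930 and chr18:38013650-38014191, were 701 and 542 bp wide. Above these the telencephalon list had peaks of 356 bp (chr18:38024913-38025268) and 173 bp (chr18:38026021-38026193) without an MGE partner. Of 15 other protein-coding genes in the region, leaving aside 3 annotated genes that run from Pcdha through to the end of Pcdhg, 1 had a peak within 1 kb of an end in MGE, Diaph1, and 3 had one in telencephalon, Diaph1, Hdac3 and Fchsd1. Over all protein-coding genes the shares for either end were 12.1% in MGE and 19.3% in telencephalon.

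Below Pcdha the lists had 3 peaks each, 2 of them shared. A shared pair lay inside Tmco6 at chr18:36739742-36740181 in MGE and chr18:36739645-36740095 in telencephalon. The other pair was the last before the cluster, chr18:36802846-36803211 in MGE and chr18:36802878-36803136 in telencephalon, 3186 and 3218 bp above Zmat2. An MGE peak at chr18:36802228-36802562, without a partner, stood just below it. The telencephalon peak without a partner lay inside Hars2, a mitochondrial histidyl-tRNA synthetase gene, at chr18:36790226-36790486.

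Peaks with a partner in the other tissue made up a smaller share inside the clusters than above them, by counts too small to set the shares apart. In the whole region 16 of 25 MGE peaks had a telencephalon partner (64.0%, interval 42.5 to 82.0%) and 16 of 33 telencephalon peaks had an MGE partner (48.5%, interval 30.8 to 66.5%). Over all chromosomes 58.4% of MGE and 47.0% of telencephalon peaks had a partner, inside both intervals. Inside the 3 clusters 4 of 10 MGE peaks were shared (40.0%, interval 12.2 to 73.8%) and 4 of 14 telencephalon peaks (28.6%, interval 8.39 to 58.1%). In the 200 kb above Pcdhg 9 of 10 MGE peaks were shared (90.0%, interval 55.5 to 99.7%) and 9 of 14 telencephalon peaks (64.3%, interval 35.1 to 87.2%). The intervals of the clusters and the upper flank overlapped in each list.

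Peak width moved with sharing. Shared peaks of the region had a median width of 368 bp in MGE and 374.5 bp in telencephalon, and unshared peaks 244 bp in MGE and 247 bp in telencephalon. Of the 9 unshared MGE peaks 7 were at the narrowest width of that list, 244 bp. This width is common, with 28.9% of the MGE peaks outside the region and 36% of those in it. Peaks at protocadherin starts had a median width of 244 bp in MGE and 218 bp in telencephalon, against 300 bp and 276 bp in the rest of the lists. In the upper flank the medians were 373 bp in MGE and 374.5 bp in telencephalon. Of the 7 MGE start peaks, 4 were at the narrowest width, including the shared one of Pcdhga11. Among the start peaks of the 57 genes, those of Pcdhac1 were the widest in both lists. The part of width in the sharing of start peaks was not tested.

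Several starts in a row fell in stretches without a peak. In telencephalon the longest ran for 386.7 kb from above the Pcdhb4 start to Pcdhga5 (chr18:37307474-37694199) and took in 24 starts, from Pcdhb5 to Pcdhgb2. Of the intervals between neighbouring peaks in that list 96.4% were shorter, and the median was 30.1 kb. The MGE list broke this stretch with 4 peaks, of which the one at Pcdhgb2 lay at a start and 3 were 244 bp wide. In MGE the longest stretch, 206.5 kb, ran from above Zmat2 to Pcdha11 (chr18:36803212-37009740) and took in the starts of Pcdha1 to Pcdha10. Of the intervals in the MGE list 86.2% were shorter, and the median was 57.0 kb. The telencephalon list broke it with its peaks after the starts of Pcdha6 and Pcdha8. From Pcdhac1 to the peak between Pcdha and Pcdhb, which spans Pcdhac2 and the constant end of the cluster, both lists were empty, over 128.3 kb in MGE and 127.2 kb in telencephalon, with 74.1% and 84.2% of the intervals of each list shorter. Between neighbouring peaks of Pcdhg, distances ran from 3.90 to 31.1 kb in MGE and from 2.39 to 40.2 kb in telencephalon. A shorter one, 0.573 kb, lay between the 2 telencephalon peaks of the space between Pcdha and Pcdhb.

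Other gene groups were counted in the same way, at the lower end, where many genes outside these clusters stop rather than start. Their shares are therefore not shares of starts. Over all protein-coding genes the lower end gave 6.23% in MGE and 10.2% in telencephalon. Counted at the lower end within 1 kb, Hox genes, which also lie in tandem clusters, gave 5 of 39 genes with a peak in MGE (12.8%, with an interval of 4.30 to 27.4%) and 6 of 39 in telencephalon (15.4%, 5.86 to 30.5%). Olfactory receptor genes, another large family used one at a time in single cells, gave 11 of 1106 in MGE (0.995%) and 2 of 1106 in telencephalon (0.181%). The 12 non-clustered protocadherin genes had none in either list (upper limit 26.5%). The intervals of the clustered protocadherins overlapped those of the Hox genes and of the non-clustered protocadherins. Those of the olfactory receptor genes, 0.498 to 1.77% in MGE and 0.0219 to 0.652% in telencephalon, lay below them without overlap. No difference was tested.

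Among 15 genes for proteins known to act in protocadherin promoter choice or in the chromatin of the clusters, 2 had a peak within 1 kb of either end in MGE (13.3%) and 3 in telencephalon (20%), near the shares over all protein-coding genes, 12.1% in MGE and 19.3% in telencephalon. Ctcf itself had one in both lists (chr8:105636496-105637086 in MGE and chr8:105636570-105636895 in telencephalon). So did Smc3, a core cohesin subunit gene (chr19:53599761-53600141 in MGE and chr19:53599723-53600034 in telencephalon). Stag2, another cohesin subunit gene, had one in telencephalon (chrX:42149060-42149362), and its nearest MGE peak was 115866 bp from the gene. Rad21, Nipbl, Wapl, Smchd1, Dnmt3b and Setdb1 were among the 12 genes with none at their ends in either list. Stag1, a further cohesin subunit gene, was also among the 12, but both lists had a peak within 1 kb of a transcript start that lies inside its annotated span.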

How the data were processed

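Peak lists of 2 CTCF ChIP-seq libraries, 1 from MGE and 1 from telencephalon, were used as deposited by the authors. Sonication gave fragments of about 500 bp and 1 part in 25 became input, per the labels' protocols. Bowtie2 2.3.2, MACS2 2.1.1.20160309 and build mm10 are named in the submitters' processing notes. The calling threshold and the control were not given in the sources used here, and track names in the file headers differ (p01 for MGE, p001 for telencephalon), so thresholds may differ between the lists.

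Peaks off the assembled nuclear chromosomes were set aside (85 MGE and 93 telencephalon peaks). Coordinates were made 1-based. Peaks overlapping by at least 1 bp were called shared. Genes came from the RefSeq table of GRCm38.p6, and stranded starts from its promoter table, 1 start per gene. Computation used Python 3.11.15, pandas 2.3.3 and scipy 1.17.1. The overlap step was checked on random parts of the deposited peaks moved by a known distance. Genes named are those with a start peak, neighbours with a peak at an end, and fixed comparison lists. Members and lists were chosen with earlier results of these data known. Alternatives changed the window, flank, overlap rule and peak width.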

Additional observations from a re-analysis of the deposited data

How the results depend on the processing

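Of 58 recomputed values, 38 were counted as close to those reported, by a loose rule. These took in rises from 7 to 10 members with a start peak in MGE and from 11 to 15 in telencephalon at a 5 kb window. Some could not have moved, since no telencephalon peak of the region was at the narrowest width of its list. Widths decided most of the 20 that were counted as moved. With the wider 50% of peaks, members with a start peak numbered 1 in MGE, 3 in telencephalon and 1 in both lists. The Pcdha, Pcdhb and Pcdhg clusters then held 1, 1 and 0 MGE peaks and 1, 0 and 2 telencephalon peaks, the region held 14 in each list, and 85.7% of its MGE and 71.4% of its telencephalon peaks were shared. Thus Pcdhg had no MGE peak left, and its rank above Pcdhb in MGE was lost. Without MGE peaks at the narrowest width the clusters held 1, 1 and 2 MGE peaks, the region held 16, and 87.5% of these were shared. With as many telencephalon peaks as MGE peaks, 7 members had a telencephalon start peak, the number found in MGE. With flanks of 500 kb the region held 55 telencephalon peaks. With start windows of 500 bp to 5 kb the counts were 6 to 10 in MGE, 11 to 15 in telencephalon and 4 to 6 in both lists. No share over all protein-coding genes was set beside the counts at other windows or widths. They therefore do not compare the members with genes at large. No paired analysis was possible because each tissue had 1 CTCF library. Without read counts, depth is unknown, and no library could be left out.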

Other observations

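The pseudogene Pcdhgb8, which the choice of protein-coding genes left out, stands between Pcdhga11 and Pcdhga12 (chr18:37761801-37840489). A telencephalon peak of 271 bp (chr18:37761529-37761799) ended 2 bp before its start, with its midpoint 137 bp before it. The nearest MGE peak was 5992 bp away, at Pcdhga11. With this peak, 8 of the 10 telencephalon peaks in Pcdhg lay within 1 kb of a start.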
